A study of Oryza sativa with 8 samples.

Results

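Leaf transcripts for the proteins of the chloroplast and mitochondrial ribosomes were followed in 8 rice (Oryza sativa) RNA-seq libraries. Genes were taken by their deposited names and descriptions, as those whose text named a 30S or 50S ribosomal protein, or a ribosomal protein together with a chloroplast, plastid or mitochondrial word, on nuclear chromosomes 1 to 12. Genes named as 40S or 60S ribosomal proteins were dropped, which removed 2 genes that also carried an organelle word. The rule found 131 of the 43019 genes listed in either table. Of these, 52 were described as plastid, 22 as mitochondrial and 2 as both, 47 carried no compartment word and 8 were described as another product.

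Chloroplasts and mitochondria descend from bacteria and keep ribosomes of the bacterial kind, built of a small and a large subunit. Part of their protein set is encoded in the organelle, but most of it is encoded in the nucleus, made in the cytosol and imported. Chloroplast ribosomes make core subunits of the photosystems and the Rubisco large subunit, and mitochondrial ribosomes make subunits of the respiratory chain. In rice, seedlings with damaged chloroplast ribosomal proteins are commonly pale or albino.

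All seedlings grew in tubes on solid 0.5x Murashige and Skoog medium at 26 °C with 13 h of light and 11 h of dark, and leaves were harvested. Wild-type DJ and the mutants dgp1 and glk1glk2 each gave 1 control library (DJ_CK, dgp1_CK, glk1glk2_CK) and 1 library from 2-week-old seedlings moved to low phosphate, 10 µM KH2PO4, for 6 days (DJ_LP, dgp1_LP, glk1glk2_LP). The wild type ZH11 gave 1 control library (ZH11_CK) and 1 from 2-week-old seedlings moved to medium without phosphate for 24 h (ZH11_NP). Not given in the sources used here were the harvest age of control leaves, the nature of the mutant alleles and the number of plants per library. GLK1 and GLK2 encode Golden2-like transcription factors, which are known to activate chloroplast genes, and DGP1 is known in rice as a repressor of GLK activity. With 1 library per group there was no replicate, so no p-value was computed, and each comparison describes a pair of libraries.

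The libraries held 12525772 to 16566008 reads on listed genes, but far fewer distinct cDNA fragments in some. Fragments were estimated from the read number at which most low genes lay, which gave 286921 in DJ_CK, 2366573 in DJ_LP, 757467 in dgp1_CK, 76923 in glk1glk2_CK and 82952 in glk1glk2_LP. In dgp1_LP and the ZH11 pair no such peak was found and each read was counted as a fragment. Levels of genes are FPKM, reads scaled to gene length and library size, summed levels are RPM, reads scaled to library size alone on the scale of the deposited values, and intervals (95%) are exact binomial intervals over estimated fragments that cover counting error only. The intervals leave out the choice of scaling, and a fold of sums taken over own reads can lie outside its interval. GLK1 (Os06g0348800) stood at 179 FPKM in DJ_CK and 40.9 in glk1glk2_CK, and at 130 in DJ_LP and 49.3 in glk1glk2_LP. GLK2 (Os01g0239000) stood at 96.2 and 32.2 in the control pair and at 86.9 and 53.0 in the low-phosphate pair, so both genes were lower in the libraries labelled glk1glk2. Markers of chlorophyll-bearing leaf cells (37 genes for light-harvesting proteins and the Rubisco small subunit) summed to 52604, 22998, 89959, 115518, 14756 and 11593 RPM in the 6-library table. Values of that table are given below in the order DJ, dgp1 and glk1glk2, each with control before low phosphate. Of the 3 root markers, LSI1 was at 63.2 FPKM in DJ_CK, 53.6 in dgp1_CK and 12.2 to 34.5 in the other libraries, RCc3 at 6.55 in DJ_CK and 0 elsewhere, and LSI2 at 0 in every library. Their part in the results was not tested. In such bulk samples, fewer cells of a type and less RNA per cell cannot be told apart. GLK factors are known to activate chloroplast genes, so in the mutants the leaf-cell markers may depend on the genotype itself. That too cannot be told apart from the number of cells.

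Of the 52 plastid members, 9 to 11 were at 0 in each library other than the glk1glk2 pair, where 13 and 17 were. The 8 plastid and 4 mitochondrial members that carry the names of organelle-encoded genes, and may be copies of organelle DNA in the nucleus, had a single value above 0, at 0.172 FPKM. Leaving these out, 44 plastid and 18 mitochondrial genes remained. The 52 plastid members were 33 large-subunit and 15 small-subunit genes and 4 genes for proteins named plastid-specific ribosomal proteins (PSRP), and the 22 mitochondrial members were 11 of each subunit.

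**Figure D1:**
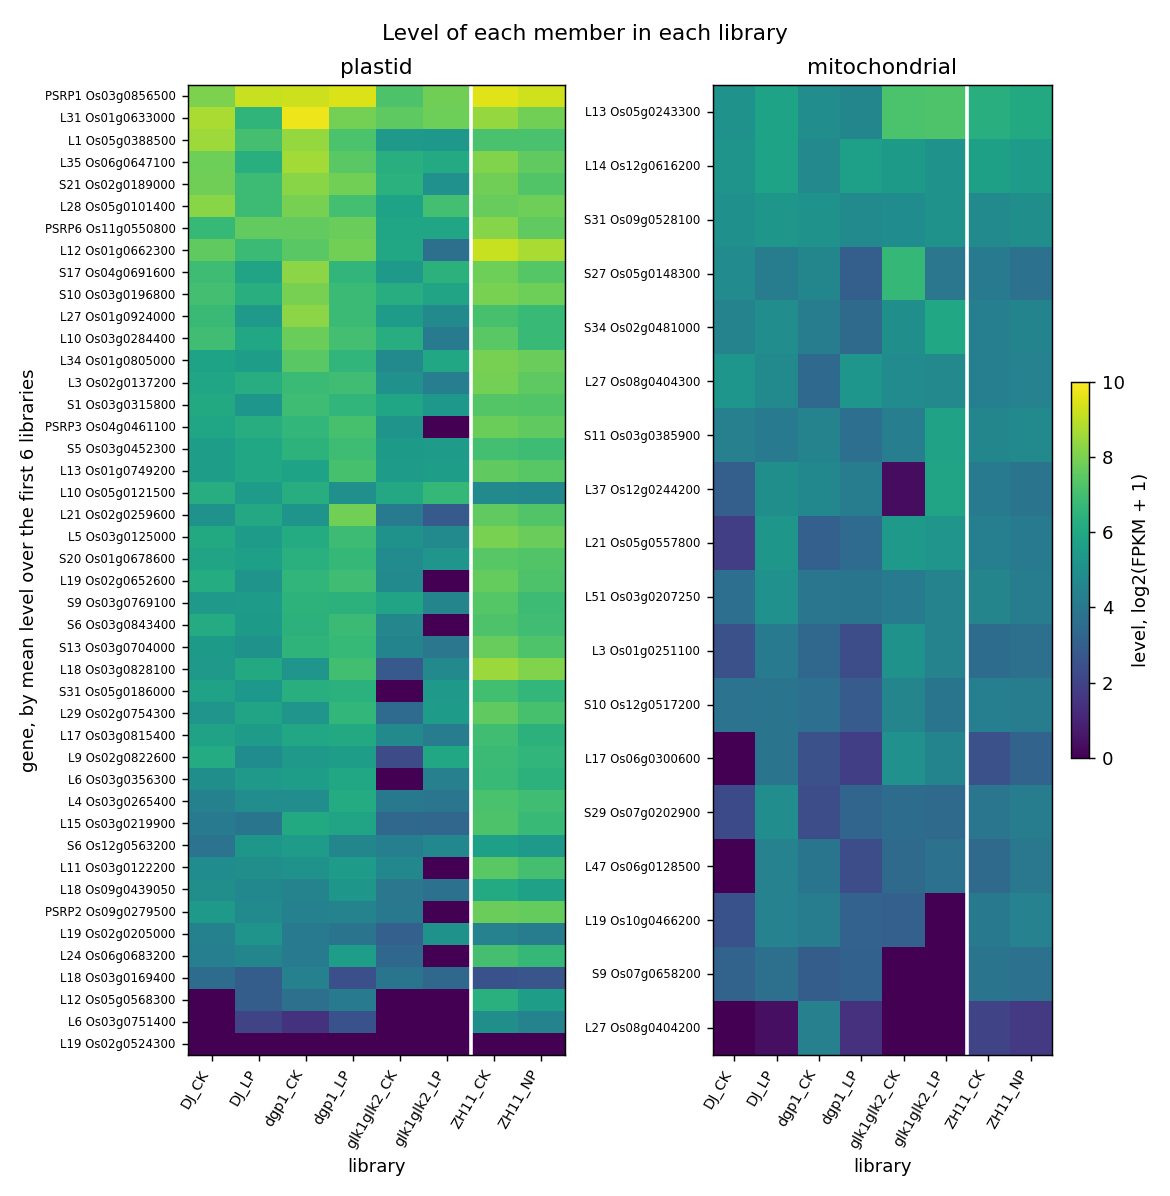
Level of the 44 plastid (left) and 18 mitochondrial (right) genes as log2(FPKM + 1), with 1 row per gene and 1 column per library. Possible copies of organelle DNA are not drawn. The white line separates the ZH11 table, which was normalized apart, and the plastid columns of the glk1glk2 libraries hold the most rows at 0.

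The most abundant plastid member was PSRP1 (Os03g0856500, chromosome 3, 36132354 to 36134532, build not given in the sources used here), a protein known in spinach to bind chloroplast ribosomes as a hibernation factor does. Its level in the 6 libraries was 259, 572, 603, 714, 147 and 224 FPKM, and in ZH11_CK and ZH11_NP it was 721 and 617 FPKM. It was lowest in the glk1glk2 pair and in DJ_CK. Plastid L31 (Os01g0633000, chromosome 1, 25350681 to 25351536), whose bacterial counterpart bridges the subunits, stood at 419, 92.4, 861, 238, 182 and 223 FPKM, with its low value in DJ_LP. Plastid L1 (Os05g0388500, chromosome 5, 18789640 to 18793642), the stalk through which deacylated tRNA leaves the bacterial ribosome, stood at 369.9, 130.5, 339, 144, 40.5 and 39.5 FPKM. Both control libraries of DJ and dgp1 were therefore above all others for L1. L35 (Os06g0647100) and S21 (Os02g0189000) completed the 5 highest means, with ranges of 68.8 to 388 and 32.3 to 299.6 FPKM.

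Transcripts for the other stalk and the exit tunnel were followed as well. L12 (Os01g0662300), whose bacterial counterpart recruits translation factors, was at 186, 113, 172, 235, 61.3 and 12 FPKM, and a second L12 gene (Os05g0568300) reached at most 16.5 FPKM in these 6 libraries against 80.1 in ZH11_CK, a value from the other table. L10, which anchors L12, had 2 genes, Os03g0284400 at 122, 61.7, 217, 129.6, 74.4 and 16.9 FPKM and Os05g0121500 at 74.4, 44.3, 73.7, 31.3, 64.9 and 100.4 FPKM. These 2 genes lay apart: the first was highest in dgp1_CK, the second in glk1glk2_LP. L11 (Os03g0122200), at the base of the stalk, was at 27.9, 30.1, 34.3, 45.6, 24.2 and 0 FPKM. At the tunnel, L4 (Os03g0265400) was at 20.3, 28.7, 28.6, 70.1, 15.6 and 14.3 FPKM and L29 (Os02g0754300) at 36.5, 56.7, 36.5, 98.7, 10.4 and 45.4 FPKM, each highest in dgp1_LP. S1 (Os03g0315800), which in bacteria holds mRNA on the small subunit, was at 66, 37, 118, 94.4, 58.4 and 38.8 FPKM, with its low value in DJ_LP and its high value in dgp1_CK. Several glk1glk2 values of this paragraph rested on fewer than 3 estimated fragments. At control and on low phosphate these were 2.77 and 0.603 for L12 (Os01g0662300), 2.3 and 0 for L11, and 1.96 and 1.99 for L4. L29 held 0.806 in glk1glk2_CK and L10 (Os03g0284400) 1.97 in glk1glk2_LP.

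Genes known from pale rice mutants were measured as well. WLP1 (L13, Os01g0749200), named for white leaves and panicles, was at 47.6, 61.1, 55.5, 134, 44.2 and 46.6 FPKM and stood apart only in dgp1_LP. WGL2 (S9, Os03g0769100), named for white-green leaves, was at 39.97, 44.8, 88.1, 85, 56.3 and 22.2 FPKM. TCD11 (S6, Os12g0563200), known from a cold-sensitive chlorophyll-deficient mutant, was at 12.9, 38.4, 44.7, 23, 19.1 and 24.5 FPKM, with its low value in DJ_CK.

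The mitochondrial members lay lower and closer together in most libraries. L13 (Os05g0243300, chromosome 5, 8697567 to 8704009), an early assembly protein in bacteria, was the highest by its mean, at 32.8, 55.2, 29.3, 23.2, 142 and 152 FPKM. Its 2 glk1glk2 values were above those of the other 4 libraries. L14 (HLL, Os12g0616200), related to the Arabidopsis ovule gene HUELLENLOS, was at 35.1, 55.1, 25.4, 49.5, 42.2 and 34.6 FPKM, S31 (Os09g0528100) at 31.1, 38.3, 34.6, 25.9, 27.8 and 33.9 FPKM and S34 (Os02g0481000) at 21.2, 28.8, 17.3, 10.1, 30.9 and 61.2 FPKM. S27 (Os05g0148300) was at 27.3, 17.4, 23.1, 7.18, 99.4 and 14.6 FPKM, and the high value in glk1glk2_CK rested on 5.51 estimated fragments. The mitochondrial L27 genes Os08g0404200 and Os08g0404300 lie next to each other on chromosome 8 and encode one family, so reads may have been split between them.

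Across members, the median level of the 44 plastid genes was 54.2, 44.4, 78.6, 99.5, 25.9 and 25 FPKM in the 6 libraries, and that of the 18 mitochondrial genes was 9.81, 23.8, 15.7, 9.3, 24.8 and 21.4 FPKM. The plastid median was 5.53, 1.86, 5.0, 10.7, 1.04 and 1.17 times the mitochondrial one. The medians thus lay several-fold apart in DJ_CK and in both dgp1 libraries and nearly together in both glk1glk2 libraries. In the ZH11 table the ratios were 9.58 and 7.81 in ZH11_CK and ZH11_NP.

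**Figure D2:**
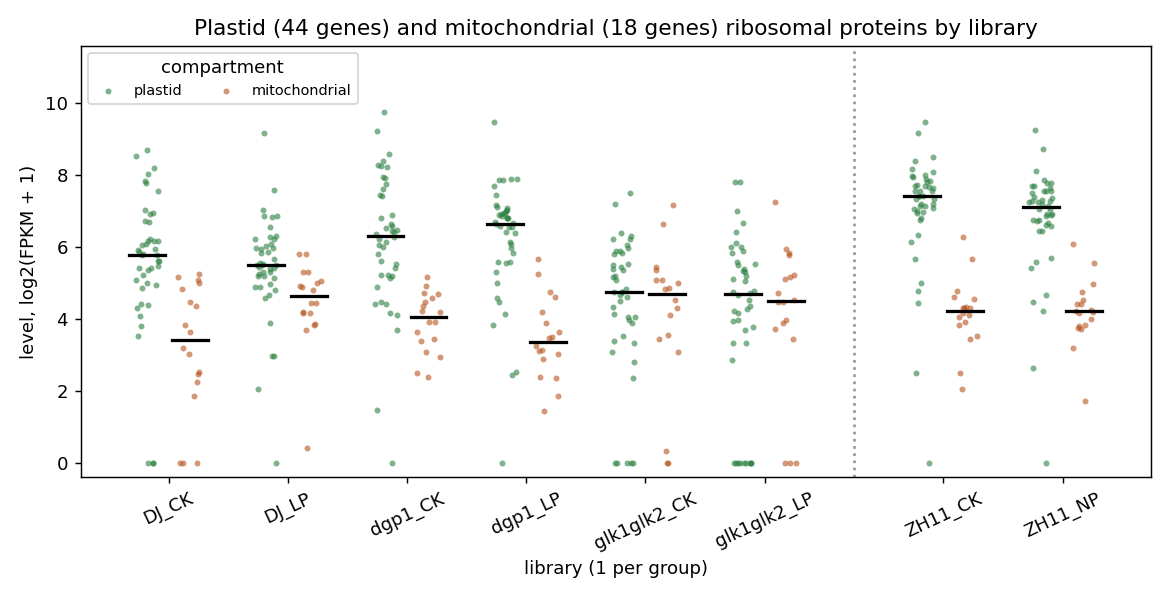
Level of the 44 plastid and 18 mitochondrial genes in each library as log2(FPKM + 1), 1 point per gene, with the median as a black bar. The dotted line separates the ZH11 table, and the 2 medians meet in the glk1glk2 libraries, where the plastid median was 25.9 and 25 FPKM.

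The balance of the 2 organelles can be read within a library, where no scaling between libraries enters. Reads on the 52 plastid members divided by those on the 22 mitochondrial members came to 14.3 (95% interval 11.2 to 18.5) in DJ_CK and 6.07 (95% interval 5.73 to 6.43) in DJ_LP. The ratio was 21.3 (95% interval 18.2 to 25.1) in dgp1_CK and 19.8 (95% interval 19.1 to 20.5) in dgp1_LP. In the mutant glk1glk2 it was 2.92 (95% interval 2.11 to 4.09) at control and 2.91 (95% interval 2.15 to 3.98) on low phosphate. The intervals of DJ_CK and DJ_LP did not overlap, those of the 2 dgp1 libraries did, and both glk1glk2 intervals lay below all others. ZH11 had 19.7 (95% interval 19.2 to 20.2) at control and 15.7 (95% interval 15.4 to 16.1) after 24 h without phosphate.

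Set against the cytosolic ribosome, the plastid side varied over a wider range than the mitochondrial side. The cytosolic side itself differed between libraries, so these ratios do not give the plastid level alone. Genes for 40S and 60S proteins held 1.02, 3.36, 1.0, 0.8, 3.16 and 2.91% of own reads in the 6 libraries. Plastid members held 0.344, 0.355, 0.452, 0.412, 0.193 and 0.207%. Plastid reads divided by those on 40S and 60S genes were 0.337, 0.106, 0.451, 0.515, 0.0611 and 0.0709 in the 6 libraries and 0.394 and 0.334 in the ZH11 pair. The same ratio for mitochondrial members was 0.0237, 0.0174, 0.0212, 0.026, 0.021 and 0.0244 and, in ZH11, 0.02 and 0.0212. The mitochondrial ratio therefore stayed between 0.0174 and 0.0260 in the 8 libraries, while the plastid ratio ran from 0.0611 to 0.515. Leaf-cell markers followed the plastid over cytosolic ratio: they were lowest in the 2 glk1glk2 libraries and next lowest in DJ_LP. Their part in these ratios was not tested.

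**Figure D3:**
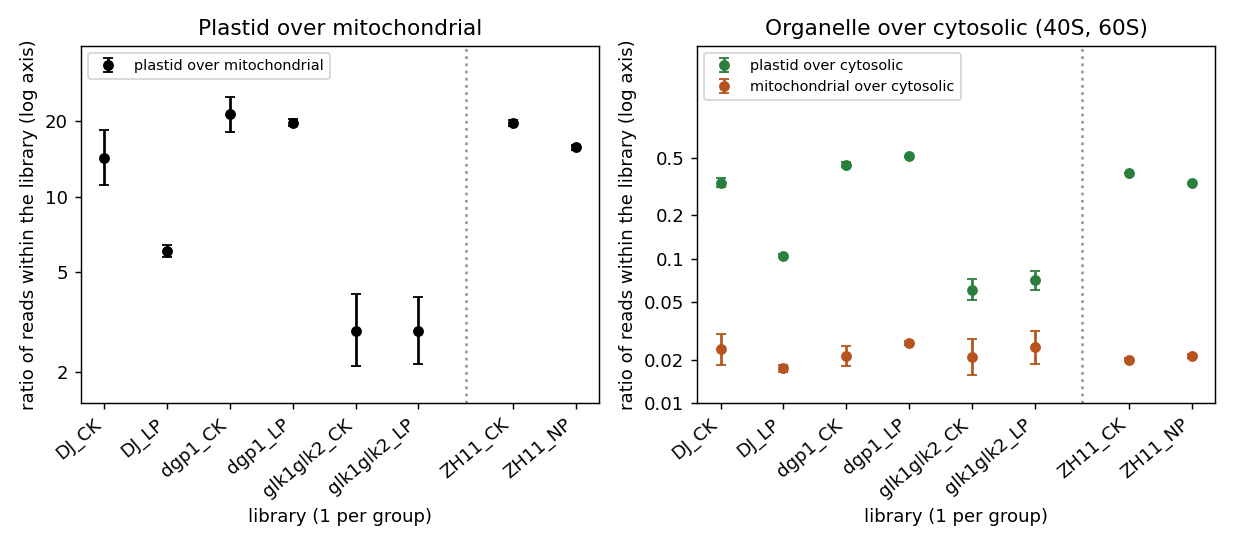
Reads on plastid over mitochondrial members (left) and on either set over cytosolic ribosomal protein genes (right) within each library, on log axes, with 95% intervals from counting error. The plastid ratios are lower in DJ_LP and in both glk1glk2 libraries than in the others, and the mitochondrial over cytosolic ratio stays near 0.02. Cytosolic genes held 1.02% of own reads in DJ_CK and 3.36% in DJ_LP, and plastid members 0.344% and 0.355%.

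In 9 families both compartments had nuclear genes (L3, L13, L17, L19, L21, L27, S9, S10 and S31), so related proteins could be set side by side. The plastid level was the higher one in 9 of 9 families in DJ_CK, DJ_LP and both dgp1 and ZH11 libraries, but in 4 of 9 in glk1glk2_CK and 5 of 9 in glk1glk2_LP. L21 shows this: the plastid gene OsRPL21 (Os02g0259600, chromosome 2, 9005264 to 9007486) was at 32.8, 64.1, 35.5, 231, 16.5 and 6.18 FPKM and the mitochondrial gene Os05g0557800 at 2.64, 38.5, 7.44, 10.3, 39.9 and 36.1 FPKM. Plastid L21 was above its mitochondrial relative in the DJ and dgp1 libraries and below it in both glk1glk2 libraries, where it rested on 1.59 and 0.662 estimated fragments. For L3, the plastid gene Os02g0137200 was at 60.1, 73.5, 111, 121, 32.6 and 18.5 FPKM and the mitochondrial gene Os01g0251100 at 4.51, 17.1, 9.49, 4.17, 32.8 and 21.1 FPKM, so the 2 were close in the glk1glk2 libraries alone among the 6. In glk1glk2_CK and glk1glk2_LP the median plastid member with reads held 2.75 and 3.9 estimated fragments, and the mitochondrial one 2.84 and 2.93. Counting error may therefore decide which gene of a family was higher there, and the counts of 4 and 5 of 9 carry that limit.

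**Figure D4:**
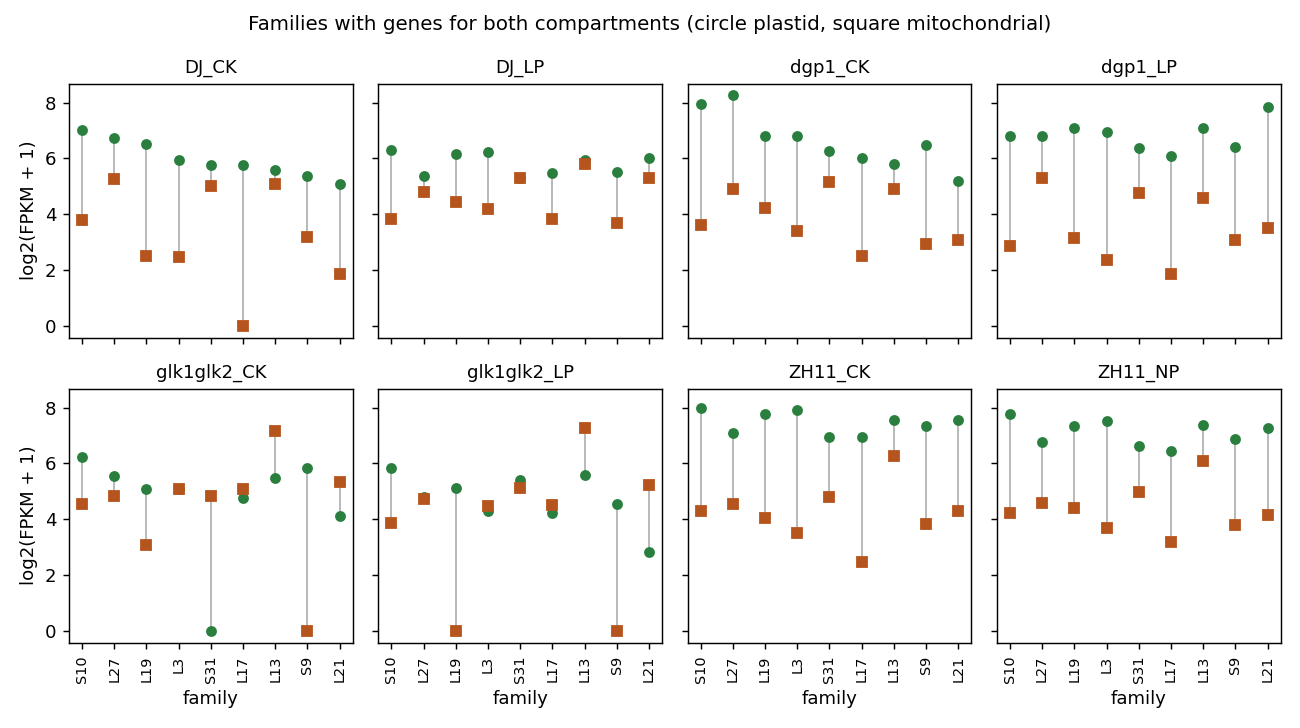
Level of plastid (circles) and mitochondrial (squares) genes in the 9 shared families, as log2(FPKM + 1), 1 panel per library, with genes of a family summed. The circles lie above the squares in every panel except those of the glk1glk2 libraries, where most genes rest on few estimated fragments.

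At control, the glk1glk2 library held fewer plastid ribosomal protein transcripts and more mitochondrial ones than DJ. Summed plastid levels were 3645 RPM in DJ_CK and 1542 in glk1glk2_CK, 2.36-fold lower (95% interval 1.99 to 2.83). Summed mitochondrial levels were 256 and 529, 2.07-fold higher (95% interval 1.41 to 3.01). As shares of own reads the plastid sums lay closer, at 0.344% and 0.193%, and the mitochondrial sums further apart, at 0.0242% and 0.0662%. A member was counted where it reached 5 FPKM in 1 library of the pair and differed at least 2-fold in FPKM + 1. Of the 41 plastid members that reached 5 FPKM, 0 were higher and 20 lower by this rule, against 27.4% higher and 31.3% lower among all genes so filtered. Scaled to their own read totals, 13 were lower. By any amount, 38 of the 41 were lower, against 51.8% of all genes. Their median log2 ratio was -0.97, and that of the 17 mitochondrial members was 0.56, with 7 higher and 2 lower, beside -0.08 over all genes. Many of these members were not separated by counting error. Intervals of the ratio lay below 1 for 9 and above 1 for 0 of the 41 plastid members. Among the 17 mitochondrial members they lay above 1 for 3 and below 1 for 0.

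L1 was 9.14-fold lower (95% interval 4.01 to 26.2) in glk1glk2_CK, L28 (Os05g0101400) 5.4-fold lower (95% interval 2.05 to 19.7), and L31 stood at 419 FPKM in DJ_CK and 182 in glk1glk2_CK. Plastid S31 (Os05g0186000) was at 53.8 FPKM in DJ_CK and 0 in glk1glk2_CK, at least 1.67-fold lower against the floor of 3 estimated fragments per library. L6 (Os03g0356300) was at 30.8 FPKM and 0, but the DJ_CK value lay under that floor of glk1glk2_CK, so no fold is given. The 2 highest plastid log2 ratios, 0.54 for TCD11 and 0.48 for WGL2, had intervals of the ratio that held 1. Among mitochondrial members, L17 (Os06g0300600) was at 0 in DJ_CK and 32.7 FPKM in glk1glk2_CK, and L21 was 2.64 and 39.9 FPKM, resting on 0.896 and 4.81 estimated fragments. The 2 lowest ratios among members above 10 FPKM, those of L27 (Os08g0404300) and S31 (Os09g0528100), were -0.42 and -0.15 on the log2 scale. Cytosolic 40S and 60S genes were 2.33-fold higher (95% interval 2.21 to 2.46) in sum, and leaf-cell markers 3.57-fold lower (95% interval 3.38 to 3.77), and the part of either in the result was not tested.

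On low phosphate the plastid side of glk1glk2 was again below DJ, and the mitochondrial side was not separated. Summed plastid levels were 2850 RPM in DJ_LP and 1601 in glk1glk2_LP, 1.78-fold lower (95% interval 1.53 to 2.08). Mitochondrial sums were 469.6 and 551, with a ratio whose interval, 0.888 to 1.52, held 1. Of 42 plastid members, 3 were higher and 19 lower, against 23.5% and 26.0% of all genes, and of 17 mitochondrial members 3 were higher and 3 lower. Intervals of the ratio lay above 1 for 1 and below 1 for 10 of the plastid members, and for 2 and 0 of the mitochondrial ones. The medians were -0.92 and -0.09 on the log2 scale. PSRP1 was 2.56-fold lower (95% interval 1.81 to 3.74) in glk1glk2_LP, and L1 3.3-fold lower (95% interval 1.52 to 8.91). PSRP3 (Os04g0461100) was at 73.2 FPKM in DJ_LP and 0 in glk1glk2_LP, and the S6 gene Os03g0843400 at 42.7 and 0. L31 went the other way, 2.41-fold higher (95% interval 1.4 to 3.92). The L10 gene Os05g0121500 stood at 44.3 and 100.4 FPKM, but it rested on 8.3 estimated fragments in glk1glk2_LP and its interval of the ratio held 1. Mitochondrial L13 was 2.75-fold higher (95% interval 1.41 to 4.9) and S11 (Os03g0385900) 3.17-fold higher (95% interval 1.42 to 6.29). Mitochondrial L19 (Os10g0466200) and S9 (Os07g0658200) were at 0 in glk1glk2_LP, but their DJ_LP levels lay under the floor of that library.

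In the 6 libraries as a whole, 36 of the 42 plastid members that reached 5 FPKM had their lowest value in a glk1glk2 library, against 40.1% of all such genes. The highest value was in dgp1_LP for 23 of them and in dgp1_CK for 13, against 18.7% and 15.2% of all genes. Among the 18 mitochondrial members that reached 5 FPKM, 9 were highest in a glk1glk2 library and 7 in DJ_LP, against 37.7% and 12.5% of all genes.

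The plastid sum of dgp1 lay above that of DJ. At control, summed plastid levels were 3645 RPM in DJ_CK and 5771 in dgp1_CK, 1.58-fold higher (95% interval 1.47 to 1.7), while mitochondrial sums were 256 and 271, a ratio whose interval of 0.794 to 1.42 held 1. As shares of own reads the plastid sums lay closer, at 0.344% (95% interval 0.323 to 0.367) and 0.452% (95% interval 0.437 to 0.467). Of 42 plastid members 10 were higher and 1 lower, against 16.1% and 14.1% of all genes, and scaled to own read totals 6 were higher and 2 lower. Of 16 mitochondrial members, 5 were higher and 1 lower, but intervals of the ratio lay above 1 for 0 of the 16 and below 1 for 1. L31 was 2.05-fold higher (95% interval 1.62 to 2.63) in dgp1_CK, PSRP1 2.33-fold higher (95% interval 1.87 to 2.94) and L15 (Os03g0219900) 4.1-fold higher (95% interval 1.5 to 15.2), and WGL2 stood at 39.97 and 88.1 FPKM. L1 did not follow, at 369.9 FPKM in DJ_CK and 339 in dgp1_CK. The lowest ratios were those of PSRP2 (Os09g0279500), at 42.1 and 20.2 FPKM, and L9 (Os02g0822600), at 71 and 41.3 FPKM, and both intervals held 1. The L12 gene Os05g0568300 was at 0 in DJ_CK and 11.8 FPKM in dgp1_CK, under the floor of DJ_CK. Mitochondrial L27 was 3.81-fold lower (95% interval 1.21 to 13.5) at Os08g0404300, while its neighbour Os08g0404200 was at 0 and 19.4 FPKM. L14 was at 35.1 and 25.4 FPKM and L47 at 0 and 13.9, under the floor of DJ_CK. Leaf-cell markers were 1.71-fold higher (95% interval 1.68 to 1.74) in dgp1_CK, and their part in the result was not tested.

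On low phosphate the gap between the plastid and mitochondrial medians was the widest of the 8 comparisons. Summed plastid levels were 2850 RPM in DJ_LP and 4822 in dgp1_LP, 1.69-fold higher (95% interval 1.65 to 1.73). As shares of own reads they lay closer, at 0.355% (95% interval 0.347 to 0.363) and 0.412% (95% interval 0.408 to 0.415). Summed mitochondrial levels were 469.6 and 244, 1.92-fold lower (95% interval 1.81 to 2.05), and as shares of own reads they lay further apart, at 0.0585% and 0.0208%. Of 42 plastid members 19 were higher and 1 lower, against 20.9% and 13.4% of all genes, and of 17 mitochondrial members 0 were higher and 10 lower. Scaled to own read totals, 4 plastid members were higher and 3 lower, and 15 mitochondrial members lower, since that scaling moved the median of all genes from 0.08 to -0.48. The plastid median of 0.91 lay 2.09 above the mitochondrial median of -1.18 on the log2 scale, and with own read totals the medians were 0.37 and -1.70.

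Plastid L21 was at 64.1 FPKM in DJ_LP and 231 in dgp1_LP, 3.61-fold higher (95% interval 3.12 to 4.2). L15 was 4.07-fold higher (95% interval 2.95 to 5.77), L31 2.58-fold higher (95% interval 2.23 to 2.99), L35 2.27-fold higher (95% interval 1.94 to 2.69) and WLP1 2.2-fold higher (95% interval 1.89 to 2.57). The lowest plastid ratios were those of the L19 gene Os02g0205000, 2.67-fold lower (95% interval 2.11 to 3.36), and TCD11, 1.67-fold lower (95% interval 1.35 to 2.06). On the mitochondrial side L47 (Os06g0128500), the relative of bacterial L29, was 5.09-fold lower (95% interval 3.26 to 7.96) in dgp1_LP and L17 5.08-fold lower (95% interval 3.24 to 8.0). The 2 highest mitochondrial ratios were those of L27 (Os08g0404300), at 26.7 FPKM in DJ_LP and 37.1 in dgp1_LP, and L14, at 55.1 and 49.5 FPKM. Cytosolic genes were 2.88-fold lower (95% interval 2.86 to 2.91) in sum, with 176 of 202 at least 2-fold lower, and leaf-cell markers were 5.02-fold higher (95% interval 4.98 to 5.06), neither tested for its part in the result. As shares of own reads the markers lay closer, at 2.86% in DJ_LP and 9.86% in dgp1_LP. The cytosolic genes lay further apart on that scale, at 3.36% and 0.8%.

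**Figure D5:**
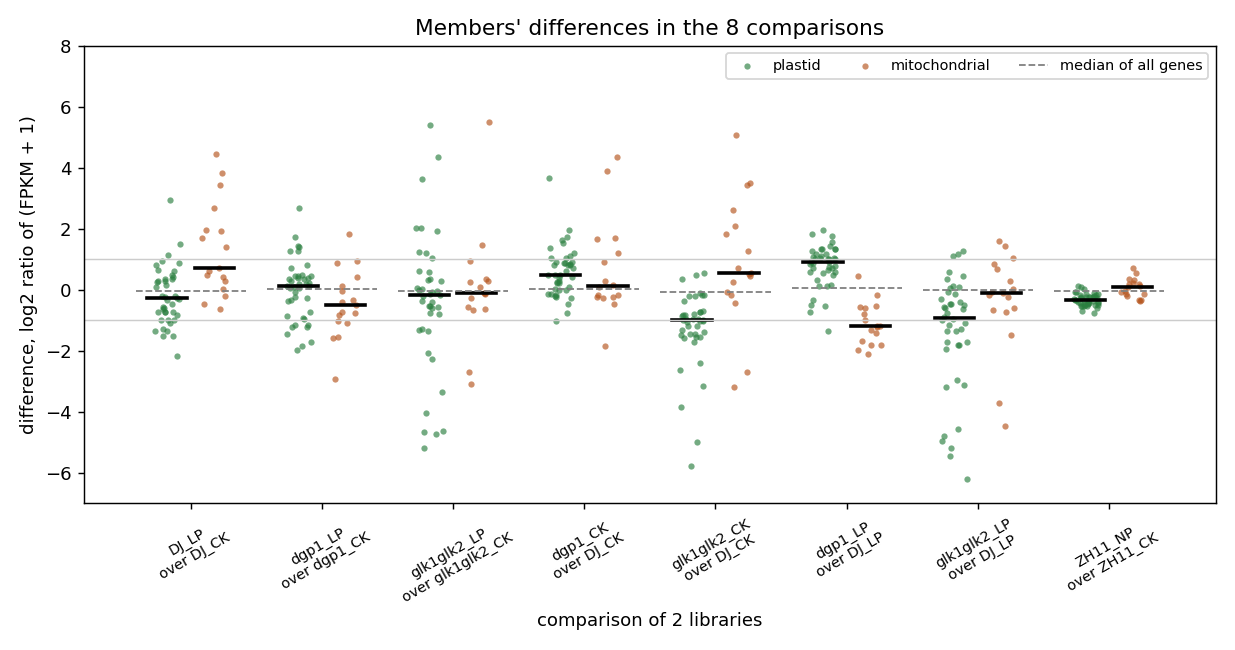
Log2 ratio of FPKM + 1 of each plastid and mitochondrial member that reached 5 FPKM, in 8 comparisons, with the median of each set as a black bar and the median of all genes as a dashed line. The plastid median lies above the mitochondrial one in the 2 comparisons of dgp1 with DJ and in the dgp1 response, and below it in the others.

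Low phosphate was compared with control within each genotype, and these responses share libraries with the comparisons between genotypes. In DJ the mitochondrial sum was higher on low phosphate, and the direction of the plastid sum depended on the scaling. Summed plastid levels were 3645 RPM in DJ_CK and 2850 in DJ_LP, 1.28-fold lower (95% interval 1.2 to 1.37). As a share of each library's own reads they were 0.344% (95% interval 0.323 to 0.367) and 0.355% (95% interval 0.347 to 0.363), so on that scale they were not lower and the intervals overlapped. Mitochondrial sums were 256 and 469.6, 1.84-fold higher (95% interval 1.44 to 2.37), and as shares of own reads they lay further apart, at 0.0242% and 0.0585%. Of 42 plastid members 3 were higher and 7 lower, against 23.1% and 24.3% of all genes, and of 17 mitochondrial members 8 were higher and 0 lower. Intervals of the ratio lay above 1 for 4 and below 1 for 13 of the plastid members, and for 4 and 0 of the mitochondrial ones. In DJ_CK the median of the 22 mitochondrial members was 1.61 estimated fragments. The plastid median, -0.28, turned to 0.11 when libraries were scaled to own read totals, with 8 members higher and 3 lower. The plastid large subunit was 1.79-fold lower (95% interval 1.65 to 1.95) in sum and the small subunit 1.38-fold lower (95% interval 1.19 to 1.59), but the shares of own reads of the small subunit, 0.0741% and 0.0709%, had overlapping intervals. Those of the large subunit lay closer than its sums, at 0.223% and 0.164%, and their intervals did not overlap. The median large-subunit gene was not lower, at 36.5 FPKM in DJ_CK and 40.8 in DJ_LP. The sum of the 4 PSRP genes was 1.92-fold higher (95% interval 1.62 to 2.3), and 1 of the 4, PSRP1, was at least 2-fold higher. PSRP6 (Os11g0550800) was at 103 FPKM in DJ_CK and 191 in DJ_LP, PSRP3 at 59.8 and 73.2, and PSRP2 at 42.1 and 26.8. For PSRP3 and PSRP2 the intervals of the ratio held 1.

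L31 was 4.53-fold lower (95% interval 3.48 to 5.87) in DJ_LP, L35 2.88-fold lower (95% interval 2.01 to 4.05), L1 2.84-fold lower (95% interval 2.35 to 3.41) and S21 1.98-fold lower (95% interval 1.41 to 2.73). PSRP1 was 2.21-fold higher (95% interval 1.8 to 2.75) and TCD11 2.99-fold higher (95% interval 1.12 to 11.5). Mitochondrial L47 was at 0 in DJ_CK and 20.9 FPKM in DJ_LP, and L17 at 0 and 13.3 FPKM, which are at least 1.39-fold and 1.36-fold higher against the floor of DJ_CK. The 2 lowest mitochondrial ratios were those of S27 and L27 (Os08g0404300), and both intervals held 1. Cytosolic genes were 2.5-fold higher (95% interval 2.41 to 2.59) in sum, and leaf-cell markers 2.29-fold lower (95% interval 2.25 to 2.33), whose part in the result was not tested.

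In dgp1 the plastid sum was lower on low phosphate, and the mitochondrial sums were not separated. Plastid sums were 5771 RPM in dgp1_CK and 4822 in dgp1_LP, 1.2-fold lower (95% interval 1.16 to 1.24), and mitochondrial sums 271 and 244, with an interval of the ratio (0.769 to 1.06) that held 1. Of 42 plastid members 6 were higher and 8 lower, against 24.0% and 20.7% of all genes, and of 17 mitochondrial members 1 was higher and 5 lower, or 2 and 3 with libraries scaled to own read totals. Members differed in direction. L31 was 3.61-fold lower (95% interval 3.24 to 4.03) in dgp1_LP, L1 2.34-fold lower (95% interval 2.07 to 2.64) and L35 2.24-fold lower (95% interval 1.9 to 2.62), whereas L21 was 6.52-fold higher (95% interval 4.26 to 10.5), the L18 gene Os03g0828100 3.38-fold higher (95% interval 2.08 to 5.88) and WLP1 2.42-fold higher (95% interval 1.73 to 3.51). Another L18 gene, Os03g0169400, was 4.56-fold lower (95% interval 1.98 to 9.37). The 3 plastid exit-tunnel genes that reached 5 FPKM (L4, L24 and L29) were each at least 2-fold higher, 2.61-fold higher (95% interval 1.96 to 3.54) in sum. Other plastid sets grouped by role did not rise in this way. From dgp1_CK to dgp1_LP, stalk genes summed to 909 and 543 RPM, head genes to 343 and 246, and early-assembly genes to 562 and 460. Genes of mRNA entry and decoding summed to 271 and 276. The median over plastid members was 0.12 although the sum was lower. Mitochondrial S27 was 3.22-fold lower (95% interval 1.32 to 6.82) and L14 1.95-fold higher (95% interval 1.18 to 3.5), and the neighbouring L27 genes differed in opposite directions, Os08g0404200 at 19.4 and 1.69 FPKM and Os08g0404300 at 9.75 and 37.1.

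In glk1glk2 no difference between control and low phosphate was detectable at this depth. Plastid sums were 1542 and 1601 RPM, with an interval of the ratio of 0.829 to 1.3, and mitochondrial sums 529 and 551, with an interval of 0.704 to 1.55. Of 41 plastid members 9 were higher and 11 lower, against 23.3% and 23.1% of all genes, and of 16 mitochondrial members 2 were higher and 2 lower. These counts were near the background. The members at the ends, such as PSRP3 and the L19 gene Os02g0652600 at 0 in glk1glk2_LP or plastid S31 and L6 at 0 in glk1glk2_CK, rested on fewer than 5 estimated fragments in the library where they were present. The same held for mitochondrial L37 (Os12g0244200), at 0.258 and 56.6 FPKM, and S10 (Os12g0517200), and the intervals of S27 and S11 held 1.

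In ZH11 after 24 h without phosphate, most plastid members were slightly lower and the mitochondrial sum was not. Plastid sums were 7585 RPM in ZH11_CK and 6143 in ZH11_NP, 1.23-fold lower (95% interval 1.22 to 1.25). Mitochondrial sums were 385 and 390.2, with an interval of the ratio of 0.978 to 1.05, and as shares of own reads were 0.0391% and 0.0415%, with intervals that did not overlap. Of 43 plastid members 0 were at least 2-fold higher or lower, and so were 0 of 17 mitochondrial members, against 1.61% higher and 3.19% lower among all genes. By any amount, 40 of the 43 plastid members were lower, against 53.6% of all genes, and 8 of the 17 mitochondrial members. The plastid log2 ratios ran from -0.75 to 0.12 with a median of -0.32, and the mitochondrial median was 0.10. Of the 2 lowest plastid members, the L12 gene Os05g0568300 was 1.69-fold lower (95% interval 1.52 to 1.88) and the L10 gene Os03g0284400 1.63-fold lower (95% interval 1.53 to 1.72). L1 stood at 139 and 141 FPKM and L28 at 206 and 218 FPKM. Among mitochondrial members, L47 was 1.53-fold higher (95% interval 1.21 to 1.95) and L19 1.31-fold higher (95% interval 1.1 to 1.57), while L51 (Os03g0207250) was 1.3-fold lower (95% interval 1.09 to 1.56) and S27 stood at 16.1 and 12.5 FPKM. Leaf-cell markers were 1.27-fold lower (95% interval 1.27 to 1.28) in sum. Cytosolic ribosomal protein genes held 1.95% of the reads of ZH11_CK and 1.96% of those of ZH11_NP, with overlapping intervals.

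The 47 members with no compartment word were described apart. Their summed level was 708, 903, 907, 697, 792 and 723 RPM in the 6 libraries. Of the 32 that reached 5 FPKM in the control pair of glk1glk2 and DJ, 15 were higher and 6 lower in glk1glk2_CK, against 27.4% and 31.3% of all genes. Of 36 on low phosphate, 2 were higher and 14 lower in dgp1_LP than in DJ_LP, against 20.9% and 13.4% of all genes. Os01g0278900, described as similar to a 50S L40 and listed under the symbol RPL5, was the most abundant of them, at 198, 93.6, 429, 236, 62 and 29.9 FPKM, highest in dgp1_CK and lowest in glk1glk2_LP. The 2 S16 genes described for both organelles stood at 21.8, 32.6, 8.24, 12.8, 40.5 and 27 FPKM (Os09g0498100) and 0, 21.8, 17, 11.2, 0 and 21.9 FPKM (Os08g0517900). The 8 members matched to another product or annotated as non-coding, among them succinate dehydrogenase subunits and a ClpS1 protease adaptor, were left out of the comparisons.

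Other genes of organelle translation were counted in the same way. The 6 plastid elongation factor genes summed to 1120, 432, 1040, 991, 215 and 204 RPM in the 6 libraries, and 6 of 6 were at least 2-fold lower in glk1glk2_CK than in DJ_CK, 5 of 6 lower in DJ_LP than in DJ_CK and 4 of 6 higher in dgp1_LP than in DJ_LP. Of all genes, 31.3% were lower, 24.3% lower and 20.9% higher in these comparisons. The mitochondrial elongation factor genes summed to 124, 203, 120.5, 75.9, 207 and 208, and 4 of 4 were at least 2-fold lower in dgp1_LP than in DJ_LP, against 13.4% of all genes. Plastid aminoacyl-tRNA synthetases, which charge tRNA, summed to 2296, 643, 3287, 4231, 684 and 708, and mitochondrial ones to 393, 501, 492, 404, 448 and 430.5. The plastid synthetases were 3.57-fold lower (95% interval 3.26 to 3.91) in sum in DJ_LP than in DJ_CK, with 6 of 9 lower and 1 higher against 24.3% and 23.1% of all genes, and 6.58-fold higher (95% interval 6.29 to 6.89) in dgp1_LP than in DJ_LP, with 6 of 9 higher against 20.9%. The 2 plastid initiation factor genes were both at least 2-fold lower in DJ_LP and in glk1glk2_CK than in DJ_CK, against 24.3% and 31.3% of all genes. Release and recycling factors summed to 437, 454, 462, 501, 355 and 330.0 and plastid RNA polymerase factors (sigma factors and pTAC proteins) to 1067, 675, 1703, 1507, 408 and 361. Ribosomal protein genes encoded in the plastid itself summed to at most 2.46 RPM in the 8 libraries, and those encoded in the mitochondrion to at most 1.85. In the 6 libraries 15 to 17 of 17 plastid-encoded and 4 to 6 of 6 mitochondrion-encoded genes were at 0. Whether library preparation and alignment captured organelle RNA was not tested, so these sums are not read as expression levels. Dividing-cell markers (101 genes for PCNA, histones, B-type cyclins and CDKB) summed to 2718, 2104, 3895, 2152, 2978 and 3496, and their part in the results was not tested.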

How the data were processed

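The authors deposited 2 tables of expression values per gene, 1 for 6 libraries and 1 for the ZH11 pair, with no unit in the file headers. The deposited values were taken as FPKM, since value times gene length was a whole multiple of a step per library (within 0.01). Aligner, counter and build: not given in the sources used here. The library kit was a directional one, per the labels' protocols. Reads were recovered from that step. The peak of genes by read number, searched from 5 to 600 reads, was taken as 1 fragment. The tables were normalized apart, so no ratio crosses them. Log2 ratios used FPKM + 1 with at least 5 FPKM in 1 library. Intervals (95%) are conditional binomial or Clopper-Pearson and depend on that peak: DJ_CK and both glk1glk2 libraries also had a lower one, and where none was found intervals may be too narrow. Compartments came from the UniProt match, then names, descriptions and Pfam. A promoter motif search was not run. Named members were the 5 highest per compartment, in each comparison the ratios at either end (2 each, members reaching 10 FPKM), mutant symbols, and stalk, tunnel and S1 families. The L3 pair, L24, PSRP6, the S16 genes, Os01g0278900, Os03g0844900 and Os04g0321500 lay outside that rule and were chosen after their values were seen. Members and lists were chosen with earlier results of these data known. Python 3.11 code used pandas, NumPy and SciPy and was tested on simulated data.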

Additional observations from a re-analysis of the deposited data

Results flagged for a closer look

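Between groups, several medians of the log2 ratio over members had opposite signs under the same contrast. With 1 library per group the differences were not tested, and each is given as the first median minus the second. For plastid members, the low-phosphate response of DJ minus that of dgp1 was -0.40, that of dgp1 minus that of glk1glk2 was 0.30, and that of dgp1 minus the ZH11 response to 24 h without phosphate was 0.44. The ZH11 response differs in time and medium from the others.

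For mitochondrial members, the low-phosphate response of DJ minus that of dgp1 was 1.22, and that of DJ minus that of glk1glk2 was 0.83. The response of dgp1 minus that of ZH11 was -0.59, and that of glk1glk2 minus that of ZH11 was -0.20. The difference of dgp1 from DJ at control minus that on low phosphate was 1.30, and the difference of glk1glk2 from DJ at control minus that on low phosphate was 0.65. DJ_CK and DJ_LP both enter the first 2 and the last 2 of these differences, and each mitochondrial median there rests on 16 or 17 genes. The values 1.22 and 1.30 are the same contrast of the same libraries taken in another order, and so are 0.83 and 0.65. Each such pair is therefore not 2 separate results.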

How the results depend on the processing

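Of 16 medians (2 compartments in 8 comparisons), 16 kept their sign and stayed within the order-statistic interval of the median under a pseudocount of 0.1 or 5 FPKM, a filter of 10 FPKM, no filter, median-of-ratios scaling and without possible organelle DNA copies. Own-total scaling (libraries set to equal recovered reads) moved all genes, whose median went from -0.05 to 0.39 for the DJ response. It turned the plastid DJ response to 0.11 and the mitochondrial difference of dgp1_CK from DJ_CK to -0.14. It moved the plastid medians to 0.23 for dgp1_CK over DJ_CK, -0.60 for glk1glk2_CK over DJ_CK and 0.37 for dgp1_LP over DJ_LP, and the mitochondrial median to -1.70 for dgp1_LP over DJ_LP. Counting members with no compartment word as plastid turned the plastid DJ response to 0.36 and moved it to -0.74 for glk1glk2_CK over DJ_CK, 0.12 for dgp1_LP over DJ_LP and -0.23 for ZH11. With members above the floor of both libraries, chosen after seeing the data, the plastid glk1glk2 response became 0.052, the mitochondrial dgp1_CK over DJ_CK -0.17 and glk1glk2_LP over DJ_LP 0.85, the last over 7 genes. The cause was not tested.

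The plastid over mitochondrial reads were also recomputed in 3 ways chosen after seeing the data. Without PSRP1 they were 4.44 in DJ_LP, 15.8 in dgp1_LP, 17.2 in ZH11_CK and 13.6 in ZH11_NP. With members of no compartment word counted as plastid they were 7.99 in DJ_LP, 22.6 in dgp1_LP, 4.41 and 4.22 in the glk1glk2 pair and 21.8 and 17.7 in the ZH11 pair. Counted as mitochondrial, they gave at control and on low phosphate 3.78 and 2.08 for DJ, 4.90 and 5.12 for dgp1 and 1.17 and 1.26 for glk1glk2, and 6.42 and 5.36 for ZH11_CK and ZH11_NP. Under each of the 3 the glk1glk2 libraries stayed lowest and DJ_LP next. Within a comparison no pairing by replicate was to be had, since each group had 1 library; a fit of low phosphate against control over the 3 genotypes of the larger table was not run. Depth limits single genes in DJ_CK and the glk1glk2 libraries, where 3 estimated fragments of a 1-kb gene correspond to 11.1, 31.2 and 28.0 FPKM.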

Other observations

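Os04g0321500, described as a 50S L27 with no compartment word (chromosome 4, 14804703 to 14805459, build not given in the sources used here) and chosen after its values were seen, was at 104 FPKM in DJ_LP and 52.6 in dgp1_LP and at 0 in the other 6 libraries, both ZH11 libraries among them. Against the floor of 3 estimated fragments per library it was at least 4.13-fold higher in DJ_LP than in DJ_CK and at least 4.56-fold higher in dgp1_LP than in dgp1_CK. In glk1glk2_LP it was at least 1.63-fold lower than in DJ_LP. Its listed length of 438 bases is the same as that of the mitochondrial L27 gene Os08g0404200, which was at 19.4 FPKM in dgp1_CK and at most 3.17 in the other libraries. Whether reads were shared between such copies was not tested.

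The 30S S1 gene Os03g0844900, also without a compartment word, was at 101, 25.5, 103, 70.04, 1.55 and 35.3 FPKM in the 6 libraries and 33.9 and 41.5 in ZH11. Plastid S1 (Os03g0315800) was at 66, 37, 118, 94.4, 58.4 and 38.8 FPKM. The low value of Os03g0844900 in glk1glk2_CK corresponds to less than 1 estimated fragment and lies under the floor of that library.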
